A study of Mus musculus with 56 samples.

Results

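RNA levels of 34 genes of glycolysis and of the response to low oxygen were followed in mouse Tregs, the regulatory subset of CD4 T cells, which relies on the transcription factor Foxp3 and restrains immune responses. The members were picked by gene symbol from a table of read counts with 55011 symbols, and all 34 symbols were present. They comprise 4 transporters of glucose or lactate, 16 glycolytic enzymes, 3 regulators of glycolytic flux and 11 genes of the hypoxia response. After a filter on low counts, 33 of the 34 could be tested in every comparison. The exception was Vegfa, which encodes an endothelial growth factor and reached at most 0.755 CPM (a count scaled to the total count of its library) in any of the 56 libraries.

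The first 51 libraries held Tregs of visceral adipose tissue (VAT) or spleen from C57BL/6 mice of genotype vTreg53 Tg+, whose T cells carry a transgenic receptor taken from a VAT Treg clone. Cells positive for that clonotype were sorted, 1000 per library, so VAT and spleen Tregs were compared within a single receptor specificity. Diets labelled HFD and NCD began at 12 weeks of age, and cells were taken after 2, 4, 8 or 16 weeks of either diet, or at week 0. Each of the 9 groups per tissue had 3 libraries, apart from VAT HFD week 4, VAT NCD week 16 and spleen NCD week 4, which had 2. The other 5 libraries came from C57BL/6 mice 8 to 10 weeks old with the knock-in alleles PPARgamma-tdT KI/KI and Foxp3-GFP KI/y, which had been given 2 doses of the cytokine IL-33 in a week. Their reporter-positive VAT Tregs were kept in medium holding IL-2 (2000 U/ml) and IL-33 (10 ng/ml) over 3 days, and the GFP-positive cells were then sorted. The interferon IFNα was added at 50 ng/ml to the cultures of 2 libraries and left out of 3. The labels call the diet animals recipients without describing a cell transfer. They do not say which libraries came from separate mice or wells, so every p-value below measures only the spread between these libraries, part of which may be technical.

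Total counts ran from 3319873 to 6091439 in the 25 VAT libraries, 3248686 to 5826965 in the 26 spleen libraries and 5408696 to 8764390 in the 5 culture libraries. A floor of 3 counts, which covers counting error only, corresponded to 0.342 to 0.923 CPM. The members took 0.536 to 0.709% of the counts of a VAT library, 0.421 to 0.577% of a spleen library and 1.28 to 2.18% of a culture library. The tissue label reads VAT throughout, so tissue was taken from the titles. Pparg, which encodes the transcription factor that defines VAT Tregs, was at 17.8 to 122 CPM in VAT and 0 to 7.76 CPM in spleen. In the cultures, started from cells sorted on a Pparg reporter, it was at 3.95 to 7.95 CPM. Foxp3 was present in every library, at 538 to 1145 CPM in VAT, spleen and IFNα cultures and up to 1238 CPM in cultures without IFNα.

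Glycolysis splits glucose into pyruvate in the cytosol. Slc2a transporters admit glucose, hexokinases trap it by phosphorylation, phosphofructokinase commits it to the pathway, and lactate dehydrogenase converts pyruvate into lactate, which leaves through Slc16a transporters. In low oxygen the prolyl hydroxylases of the Egln family no longer mark the HIF1α protein for breakdown, and HIF1α then binds promoters with its partner ARNT and raises transcription of many of these genes. HIF1α is controlled largely at the protein level, so Hif1a RNA is not a measure of its activity. In T cells, receptor signals and growth factors raise many of the same genes.

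Promoter sequence was examined because HIF1α binds the core letters ACGTG or GCGTG. Of the 31 members with an entry in the RefSeq promoter table (GRCm38.p6), 29 (93.5%) held at least 1 such core on either strand between 250 bases before and 50 bases after a start site. The same held for 46.7% of all 27025 genes and 52.3% of the 17491 protein-coding genes in that table. Counted by window, the share was 77.6% of 49 member windows and 43.8% of all 32851 windows. The members were listed partly as known HIF targets, so a higher share can follow from that choice and is not a result of these libraries. ACGTG also lies within CACGTG, the E-box read by MYC and its relatives, and a match is only a match of letters. The 250 bases before the start sites of 5 members are shown, 5′ to 3′ on the gene's own strand, with the cores in capitals (CACGT and CACGC are the cores of the other strand). They were picked because these genes behaved differently in the comparisons below and their windows lie outside the gene bounds annotated in GENCODE M21: Pgk1 chrX:106186850-106187099 on the plus strand, Pdk1 chr2:71872974-71873223 on the plus strand, Hk2 chr6:82774455-82774704 on the minus strand, Ldhb chr6:142507958-142508207 on the minus strand and Egln3 chr12:54203875-54204124 on the minus strand.
Pgk1: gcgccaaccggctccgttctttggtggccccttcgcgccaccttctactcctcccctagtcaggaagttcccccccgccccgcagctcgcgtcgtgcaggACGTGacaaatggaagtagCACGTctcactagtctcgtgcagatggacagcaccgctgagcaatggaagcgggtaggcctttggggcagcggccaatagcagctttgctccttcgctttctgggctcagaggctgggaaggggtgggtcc
Pdk1: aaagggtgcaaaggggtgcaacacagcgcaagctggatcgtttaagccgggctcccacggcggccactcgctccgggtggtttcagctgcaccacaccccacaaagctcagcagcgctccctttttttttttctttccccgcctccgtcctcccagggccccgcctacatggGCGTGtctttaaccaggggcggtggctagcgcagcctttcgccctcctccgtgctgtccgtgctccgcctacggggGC
Hk2: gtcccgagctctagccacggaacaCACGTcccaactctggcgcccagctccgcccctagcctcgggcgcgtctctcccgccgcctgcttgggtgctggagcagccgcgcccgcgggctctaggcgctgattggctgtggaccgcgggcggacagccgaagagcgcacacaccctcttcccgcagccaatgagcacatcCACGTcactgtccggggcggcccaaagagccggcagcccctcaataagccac
Ldhb: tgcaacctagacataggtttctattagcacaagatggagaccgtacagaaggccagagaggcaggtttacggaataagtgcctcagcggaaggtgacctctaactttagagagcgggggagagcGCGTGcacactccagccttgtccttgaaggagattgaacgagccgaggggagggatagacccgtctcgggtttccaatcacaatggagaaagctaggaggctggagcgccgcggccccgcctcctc
Egln3: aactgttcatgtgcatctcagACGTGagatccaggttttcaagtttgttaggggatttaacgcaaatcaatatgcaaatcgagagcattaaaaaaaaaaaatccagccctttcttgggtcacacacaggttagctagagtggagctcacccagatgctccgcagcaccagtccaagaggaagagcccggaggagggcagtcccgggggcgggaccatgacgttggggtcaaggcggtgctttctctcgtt
Pgk1 and Hk2 hold 2 whole cores each in these 250 bases, and Pdk1, Ldhb and Egln3 hold 1 each. The capital GC that ends the Pdk1 stretch is the start of a further GCGTG that crosses the start site. In VAT against spleen Tregs, Pgk1 and Egln3 were higher, Pdk1 and Ldhb lower, and Hk2 did not pass the test in mice without HFD. Because the 5 were picked for differing behaviour, their core counts cannot show whether cores and direction are linked.

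Levels were compared between genes only as mean CPM per kb of annotated exon, a scale that understates genes with many alternative exons. In VAT Tregs without HFD, the lactate-forming enzyme gene Ldha was highest, at 290 CPM per kb, followed by Aldoa (aldolase A) at 201 and Pkm (pyruvate kinase) at 181. Hif1a and Egln3, at 59.8 and 43.4 CPM per kb, lay in the range of the enzyme genes Tpi1 (61.2) and Gapdh (40.7). At the low end were Bnip3 (3.86), Pgam1 (3.08), Pfkfb4 (0.93) and Hk2 (0.50). In cultures without IFNα, Ldha reached 1512 CPM per kb, Aldoa 846, Pkm 714 and Tpi1 686. Counts of 4 members are less certain than the rest, because over 50% of their 38-base words also occur in other transcripts: Pgk1 (68.2%), Bnip3 (66.3%), Gapdh (61.0%) and Eno1 (52.0%). For Pgam1 the share was 41.9%, and 9 members in all reached at least 20%. How reads with several matches were counted is not known, so the ranks of Gapdh, Bnip3 and Pgam1 given here are uncertain. The Eno1 copy Eno1b was at 0 to 4.11 CPM. Nextera XT libraries do not mark strand, and Ankrd37 and Bnip3 share 26.4% and 22.3% of their exon length with overlapping genes.

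**Figure D1:**
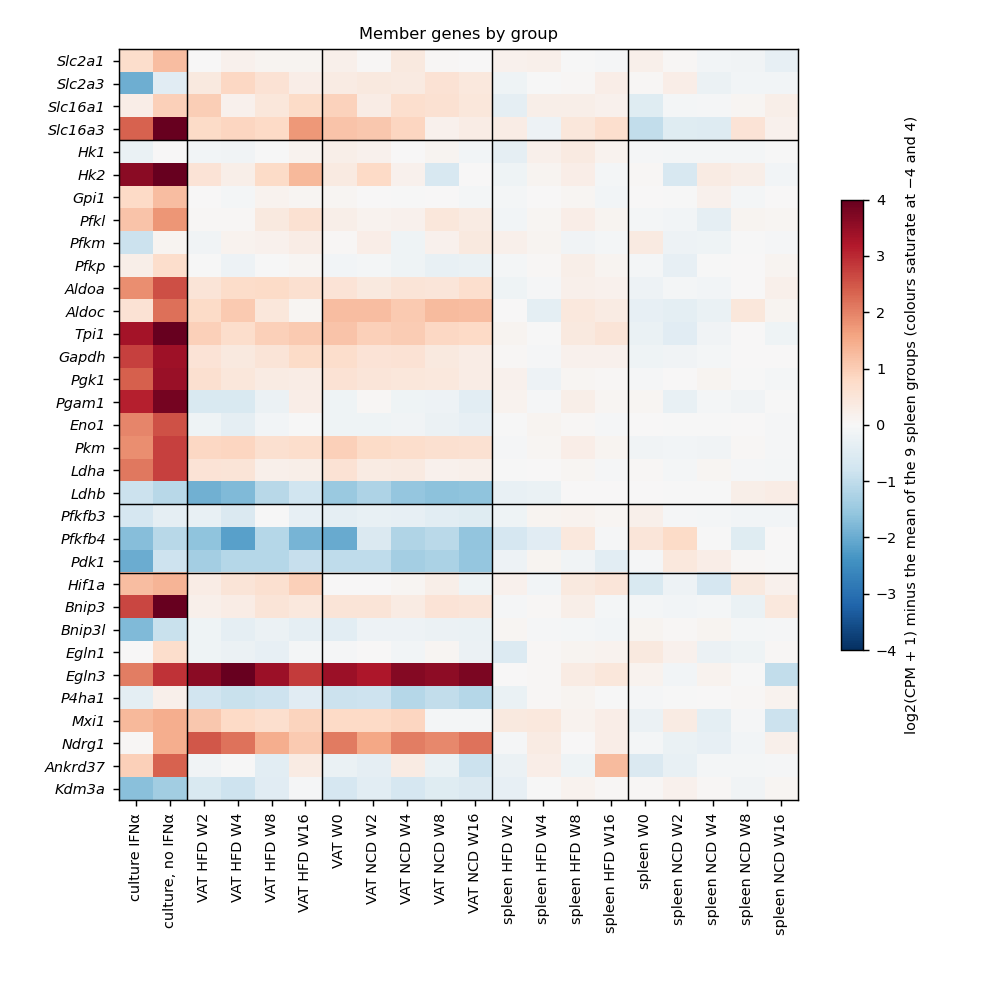
Each row is 1 of the 33 tested members, each column 1 of the 20 groups, and colour is the group mean of log2(CPM + 1) minus the mean of the 9 spleen groups (colours saturate at 4 in either direction). Egln3 and Ndrg1 stand out in all VAT groups, and most enzyme genes in the 2 culture groups.

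VAT Tregs carried more RNA of most of these genes than spleen Tregs with the same receptor. In mice without HFD (week 0 and the NCD weeks, 14 libraries per tissue), 20 of 33 members were higher in VAT, 5 were lower and 8 did not pass an adjusted p of 0.05 (edgeR quasi-likelihood test, Benjamini-Hochberg over 15601 genes). Over all genes tested, 59.1% were called, 29.1% higher and 30.0% lower, so being called was common, while the members' calls were mostly on the higher side. The members' median log2 change was 0.41 and that of all genes −0.04. With libraries scaled by their totals alone, the all-gene median moved to −0.26, the members' median to 0.20, and the members' split to 15 higher and 8 lower. In that scaling Gpi1 turned round (−0.03 against 0.19) and Slc2a1, Hk1, Pfkm and Hif1a stayed above 0 without passing the test. These 5 are therefore given below as dependent on scaling. They are not the only ones: the lower calls rose from 5 to 8 in that scaling, so some members given below as not passing depend on it too.

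All 4 transporter genes were called higher in VAT. Slc2a3, a high-affinity glucose transporter, ranged from 202 to 305 CPM (median 233) in VAT and from 143 to 228 CPM (median 175) in spleen, a log2 change of 0.66 ± 0.06 (SE; adjusted p = 2.92e-14). Slc16a3, the exporter of lactate, averaged 29.0 ± 9.16 CPM in VAT and 15.8 ± 9.47 CPM in spleen (SD, n = 14 each), a log2 change of 1.16 ± 0.15. Its ranges overlapped, 15.5 to 43.4 CPM in VAT against 6.81 to 35.6 CPM in spleen, and its group mean was higher in VAT in 3 of 5 time and diet groups. Slc16a1, which carries lactate both ways, changed by 0.88 ± 0.12. Slc2a1, the basal glucose transporter, changed by 0.42 ± 0.11 and depends on scaling.

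Of the 16 enzyme genes, 11 were higher in VAT, 1 was lower and 4 did not pass the test. Pkm averaged 907 ± 109 CPM in VAT and 516 ± 49.8 CPM in spleen (SD, n = 14 each), and its lowest VAT library, at 712 CPM, lay above its highest spleen library, at 614 CPM (log2 change 1.02 ± 0.06, adjusted p = 1.72e-19). Tpi1, triose phosphate isomerase, ranged from 129 to 205 CPM (median 166) in VAT and from 51.8 to 104 CPM (median 76.4) in spleen, a log2 change of 1.37 ± 0.09 (adjusted p = 1.20e-16). Gapdh, often taken as a constant reference gene, ranged from 137 to 201 CPM (median 167) in VAT and from 94.4 to 132 CPM (median 110) in spleen, a log2 change of 0.79 ± 0.06. For these 3 enzymes no VAT library fell within the spleen range, and Pgk1 separated narrowly (VAT from 46.7 CPM, spleen up to 46.4 CPM). Of the 34 members, 6 lay wholly above their spleen range without HFD and 3 wholly below it. The share of all genes that separated is not given, so these separations are description only. Aldoc (aldolase C) changed by 1.52 ± 0.16, Aldoa by 0.77 ± 0.05, Pgk1 (phosphoglycerate kinase) by 0.69 ± 0.07, Ldha by 0.56 ± 0.05 and Pfkl by 0.55 ± 0.07. Hk1 (0.37 ± 0.11), Pfkm (0.37 ± 0.15) and Gpi1 (0.19 ± 0.05) depend on scaling. The call on Pfkm was also lost when any 1 of 7 libraries was left out (adjusted p up to 0.0648): replicate 1 of spleen NCD week 2, replicate 2 of spleen NCD weeks 4 and 8, replicate 2 of VAT NCD weeks 2 and 8, and replicate 3 of VAT NCD weeks 4 and 16. Hk2, Pfkp, Pgam1 and Eno1 did not pass.

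Ldhb ran against the other enzyme genes. It encodes the lactate dehydrogenase subunit that favours oxidation of lactate, and it ranged from 15.2 to 42.9 CPM (median 22.5) in VAT against 60.1 to 92.1 CPM (median 69.4) in spleen (log2 change −1.41 ± 0.10, adjusted p = 5.81e-16). Every VAT library lay below every spleen library. Of the 3 flux regulators, none was higher in VAT. Pdk1, the kinase that shuts pyruvate dehydrogenase and so keeps pyruvate out of the mitochondrion, ranged from 61.4 to 124 CPM (median 108) in VAT and from 153 to 400 CPM (median 259) in spleen, a log2 change of −1.19 ± 0.11 (adjusted p = 4.13e-12). Pfkfb4, which sets fructose 2,6-bisphosphate, changed by −1.37 ± 0.28 at low levels (4.53 CPM in VAT and 12.9 CPM in spleen on average). Its relative Pfkfb3 did not pass (−0.14 ± 0.08).

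Among the 10 tested hypoxia response genes, 5 were higher in VAT, 2 were lower and 3 did not pass, and this group held the largest changes. Egln3, the oxygen-sensing prolyl hydroxylase whose own gene HIF1α induces (chr12:54178981-54203860, GRCm38, minus strand), ranged from 75.7 to 139 CPM (median 122) in VAT and from 1.22 to 18.2 CPM (median 9.21) in spleen. That is a log2 change of 3.92 ± 0.22 (adjusted p = 2.24e-17). Ndrg1, a stress-induced gene (chr15:66929318-66969640, minus strand), ranged from 102 to 189 CPM (median 159) in VAT and from 24.4 to 62.8 CPM (median 34.1) in spleen, a log2 change of 2.28 ± 0.10 (adjusted p = 9.16e-24). Neither gene's ranges overlapped. Mxi1, an antagonist of MYC, changed by 0.94 ± 0.18, and Bnip3, which marks mitochondria for removal, by 0.77 ± 0.15. P4ha1, a collagen prolyl hydroxylase subunit, changed by −0.79 ± 0.11 and Kdm3a, a histone demethylase, by −0.40 ± 0.08. Hif1a itself was at 353 ± 58.6 CPM in VAT and 322 ± 112 CPM in spleen (SD, n = 14 each), a log2 change of 0.41 ± 0.11 that depends on scaling. In CPM its group mean was lower in VAT than in spleen at NCD weeks 8 and 16, and higher in the other groups without HFD. Bnip3l, Egln1 and Ankrd37 did not pass.

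**Figure D2:**
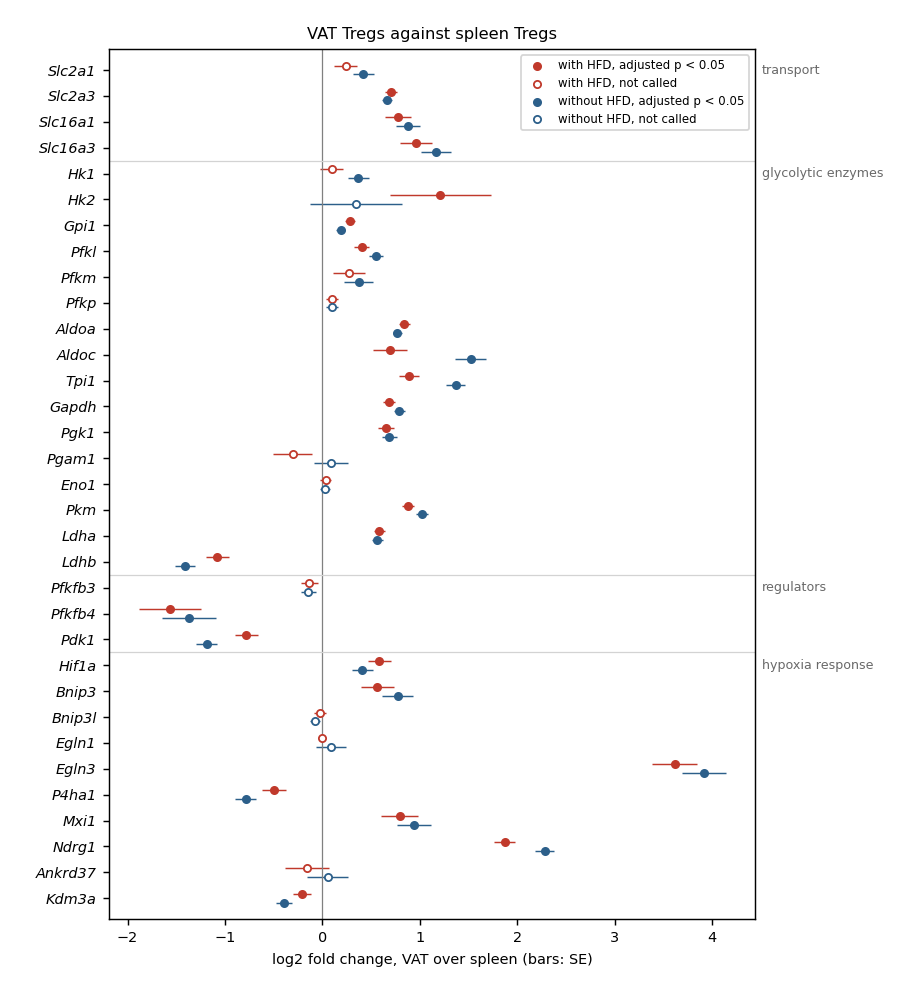
Log2 change of each tested member in VAT over spleen Tregs, with HFD (red) and without HFD (blue); points are edgeR estimates and bars are standard errors. Egln3 and Ndrg1 lie farthest to the right in both diets, Ldhb, Pdk1 and Pfkfb4 to the left.

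Counts for 6 lists of related genes outside the 34 stand against the same background, 29.1% of all genes higher and 30.0% lower, and some lists lay near it. Of 26 further HIF target genes tested, 12 were higher and none lower in VAT. The smallest p among them belonged to Rora (3.12 ± 0.11), Ero1l (2.39 ± 0.12) and Tfrc (1.92 ± 0.11), the transferrin receptor. Of 8 pentose phosphate genes, 4 were higher and 2 lower, with changes of 0.34 ± 0.05 for Taldo1, 0.22 ± 0.06 for Tkt and 0.23 ± 0.08 for Pgd. Of 11 genes of pyruvate entry into mitochondria, 4 were higher and none lower, among them Pdk3 (0.64 ± 0.10), Dlat (0.60 ± 0.09) and Dld (0.26 ± 0.07). Of 9 oxygen-sensing genes, 3 were higher and 3 lower, with Arnt2 at 2.33 ± 0.22, Vhl at −0.55 ± 0.10 and Siah2 at 1.05 ± 0.24. Of 14 other glycolysis genes, 6 were higher and 2 lower, with Slc16a6 at 1.48 ± 0.09, Eno3 at −1.52 ± 0.16 and Slc2a8 at 1.25 ± 0.17. Of 11 nutrient regulators, 5 were higher and 3 lower: Tbc1d4 changed by −3.94 ± 0.15, Rheb by 0.91 ± 0.07, Irs2 by 1.99 ± 0.15 and Myc by 0.90 ± 0.10. All of these are log2 changes with standard errors.

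A list of 20 immediate early and heat shock genes, known to respond quickly to stimulation and to handling of cells, had a median log2 change of 4.34 in VAT over spleen. Its genes summed to 18670 to 34810 CPM in VAT libraries without HFD and 1267 to 1823 CPM in spleen libraries without HFD, and 18 of 20 were called higher. The genes with the smallest p were Zfp36 (3.67 ± 0.10), Btg2 (2.50 ± 0.07) and Junb (5.01 ± 0.11). Their part in the members' changes was not tested. Among markers of other cell types, the B cell list summed to 338 to 6189 CPM in VAT and 1313 to 2730 CPM in spleen without HFD, nearly all of it Ighm. The part of other cells in the members' changes was not tested.

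With HFD (11 VAT and 12 spleen libraries), 18 of 33 members were higher in VAT, 5 were lower and 10 did not pass. Over all genes 47.4% were called, 22.3% higher and 25.1% lower. Under library totals alone the members' split was 15 higher and 9 lower, a scaling to which those shares of all genes do not belong. Egln3 changed by 3.61 ± 0.23 (121 ± 53.0 CPM in VAT and 11.4 ± 4.85 CPM in spleen; SD, n = 11 and 12) and Ndrg1 by 1.87 ± 0.11 (146 ± 61.9 CPM in VAT and 44.1 ± 9.05 CPM in spleen). Ldhb changed by −1.08 ± 0.12 and Pdk1 by −0.78 ± 0.12. Slc2a1, Hk1 and Pfkm did not pass with HFD. Hk2 just passed (1.21 ± 0.51, adjusted p = 0.0493), with replicate 1 of VAT HFD week 16 at 24.7 CPM and all other VAT HFD libraries at 0.947 to 8.05 CPM. Kdm3a was also at the threshold (−0.21 ± 0.09, adjusted p = 0.0499). Each of these calls was lost when single libraries were left out, for Hk2 in 15 and for Kdm3a in 16 of the 23 cases. No member's HFD effect, averaged over weeks, differed between VAT and spleen by edgeR (5 at an unadjusted p under 0.05). DESeq2 and limma each also called 0, and 2.44% of all genes were called by edgeR. Leaving out single libraries gave 1 call in 2 of 45 fits. Calls also appeared with no filter on low counts and with the replicate number as a block, as the closing section gives.

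Isoform choice was described as each isoform's share of its family's CPM per kb, with no test. Hk2, the inducible hexokinase, made up 34.2% of Hk1 plus Hk2 in cultures with IFNα, 39.6% in cultures without it, 3.07% in VAT without HFD and 2.84% in spleen without HFD. With HFD it averaged 5.83% in VAT (1.07 to 19.4%) and 2.99% in spleen (0.671 to 13.6%), so Hk1 was the larger part in every tissue library. Slc2a1 made up 58.4 ± 2.7% of Slc2a1 plus Slc2a3 in cultures without IFNα, and 26.4 ± 3.97% in VAT and 29.4 ± 4.02% in spleen without HFD (SD, n = 3, 14 and 14). Slc2a1 reached at most 41.1% in any tissue library, so Slc2a3 had the larger share of the pair's RNA there. In cultures without IFNα the larger share of Slc2a1 rests on the division by exon length. Before that division Slc2a3 was the higher of the pair there, at 132 CPM on average against 89.7 CPM for Slc2a1. Slc16a3 made up 79.9% of Slc16a1 plus Slc16a3 in cultures without IFNα, 34.5% in VAT and 30.0% in spleen without HFD. Ldhb was 5.03% of the lactate dehydrogenase pair in VAT without HFD, 17.1% in spleen without HFD and 1.27% in cultures without IFNα.

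**Figure D3:**
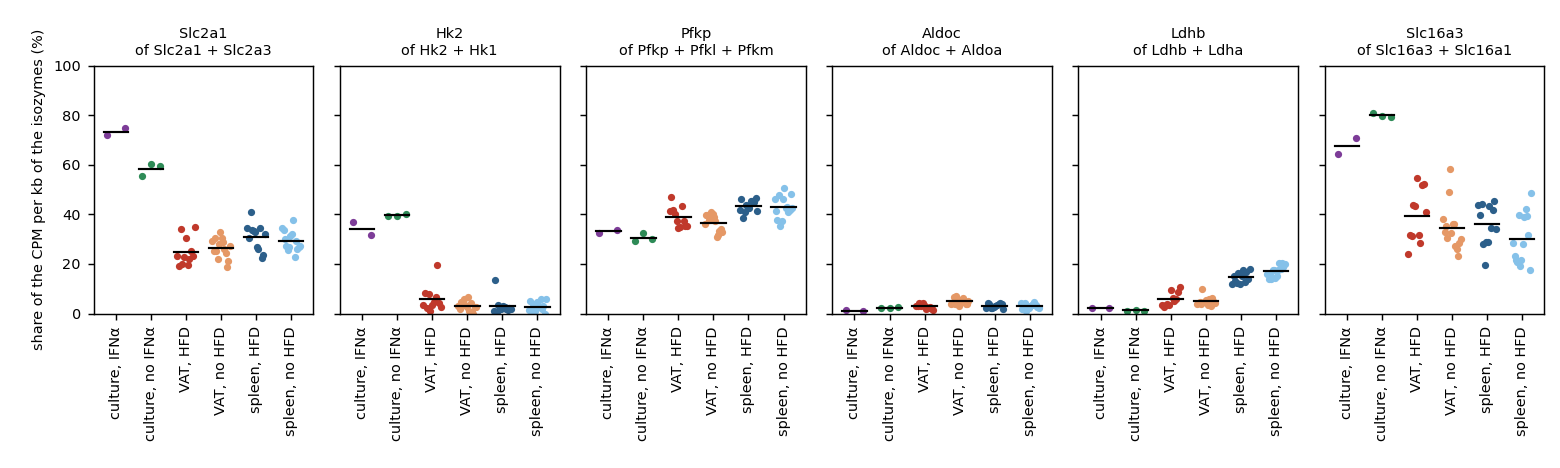
Share of each named isoform in its family's summed CPM per kb, in percent, by class of library; points are libraries and bars are means. Hk2 is near 3% in tissue Tregs without HFD and near 40% in cultures without IFNα, and Ldhb is highest in spleen.

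Few members were called between diets in VAT Tregs at any week, and the called members differed by week. With 2 or 3 libraries per group, a member that was not called may still have changed. At week 2 the only member called was Ndrg1, at 222.7, 216.6 and 233.7 CPM in HFD libraries against 103.4, 101.8 and 145.1 CPM in NCD libraries. Its 3 HFD values, on which the call itself rests, all lay above its 3 NCD values. The log2 change was 1.05 ± 0.14 (edgeR adjusted p = 0.000585). Of all 14164 genes tested, 0.0565% were called at week 2. Under library totals alone, the all-gene median at week 2 moved to −0.12 and Ndrg1 was still called higher. At week 4 no member was called (4 at an unadjusted p under 0.05; 0.0212% of all genes called; 0 members by DESeq2 and limma). At week 8 edgeR called none either (7 at an unadjusted p under 0.05, and 1.33% of all genes), while DESeq2 called 1 and limma 0. With no filter on low counts, edgeR called 1 member at week 4 and 2 at week 8. With only the groups compared it called 1 at week 4. Egln3 was at 230.4 and 195.1 CPM in the HFD libraries of week 4 against 123.0, 121.5 and 139.4 CPM in NCD (log2 difference 0.80, adjusted p = 0.27).

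At week 16, 2 members were higher and 3 lower with HFD, against 4.31% of all genes higher and 4.93% lower (9.24% in all). Hif1a (chr12:73901375-73947530, plus strand) was at 734.3, 645.3 and 601.3 CPM in HFD libraries against 296.8 and 301.8 CPM in NCD libraries, a log2 change of 1.03 ± 0.18 (adjusted p = 0.000306). Slc16a3 (chr11:120948480-120960868, plus strand) was at 76.3, 51.7 and 43.3 CPM against 20.2 and 19.6 CPM, a log2 change of 1.41 ± 0.26 (adjusted p = 0.0006). For both genes all 3 HFD libraries lay above both NCD libraries, and for the 3 genes that fell all HFD libraries lay below. These genes were called on the same values, so the separation adds no further support. Ndrg1, higher with HFD at week 2, was at 69.4, 94.8 and 83.3 CPM in HFD libraries against 175.4 and 181.7 CPM in NCD libraries at week 16 (log2 change −1.23 ± 0.15, adjusted p = 5.62e-06). Egln3 was at 42.8, 102.3 and 71.7 CPM against 136.9 and 133.1 CPM (−1.01 ± 0.25, adjusted p = 0.0113). Aldoc was at 19.8, 14.6 and 10.2 CPM against 28.5 and 38.6 CPM (−1.28 ± 0.30, adjusted p = 0.005).

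These week 16 calls rest on few libraries. Without NCD replicate 3, Aldoc and Egln3 were no longer called (adjusted p = 0.113 and 0.0703) and 3 members remained. Without NCD replicate 2, Egln3 was not called (adjusted p = 0.0788). HFD replicate 1 stood apart from the other 2, with the highest Hif1a, Slc16a3, Tpi1 (273.5 CPM against 148.2 and 139.4) and Hk2 (24.7 CPM against 4.3 and 2.6) and the lowest Ndrg1 and Egln3. Under library totals alone the all-gene median was 0.14 in place of 0.02, and the split was 4 higher and 3 lower.

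Several other genes moved at week 16. The immediate early list summed to 10676 to 22475 CPM in HFD libraries against 33852 to 34810 CPM in NCD libraries, and 14 of its 20 genes were lower, with Ier3 at −3.40 ± 0.42, Zfp36 at −1.70 ± 0.23 and Fosb at −2.71 ± 0.35. With the mean of that list as a covariate, a choice made after seeing the data, none of the 5 members was called at week 16 (Ndrg1 −0.64, adjusted p = 0.39; Hif1a 0.95, adjusted p = 0.261; Egln3 −0.05). At week 2, where the list summed to 25749 to 26474 CPM with HFD and 18670 to 20817 CPM with NCD, Ndrg1 was at 0.82 with the covariate (adjusted p = 0.112). The list's sums did not overlap between diets at either week. The covariate and diet therefore cannot be told apart in these fits, and a lost call says nothing about cause. Pparg averaged 31.4 CPM with HFD and 106 CPM with NCD at week 16 (−1.86 ± 0.35), and 5 marker genes of VAT Tregs summed to 2376 to 4158 CPM against 5898 to 6603 CPM. Foxp3 was not called (−0.12 ± 0.10). The B cell list summed to 1792 to 2682 CPM with HFD and 338 to 357 CPM with NCD. The part of these shifts in the members' changes was not tested, and in sorted bulk samples a change in cell makeup and a change in RNA per cell cannot be told apart.

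Of 26 further HIF targets, 2 were higher and 2 lower with HFD at week 16, among them Rora (−1.04 ± 0.11), Ero1l (−1.46 ± 0.25) and Rragd (1.80 ± 0.38). Of 13 other glycolysis genes, Eno3 was higher (1.69 ± 0.46) and Slc16a6 (−0.53 ± 0.15) and Adpgk (−0.51 ± 0.16) were lower. Taldo1 was the only 1 of 8 pentose phosphate genes called (−0.42 ± 0.13), and Tbc1d4 the only 1 of 11 nutrient regulators (2.46 ± 0.45). Myc was not called (−0.20 ± 0.25).

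Averaged over the 4 weeks, 3 members were called in VAT, against 4.20% of all genes. Hif1a was higher with HFD (0.57 ± 0.08, adjusted p = 0.000112), with weekly differences of 0.37, 0.50, 0.39 and 1.03 at weeks 2, 4, 8 and 16. Aldoc was lower (−0.62 ± 0.14, adjusted p = 0.0105). Slc16a3 was higher (0.45 ± 0.12, adjusted p = 0.028), but its weekly differences of −0.24, 0.05, 0.61 and 1.41 show that week 16 carries the mean, and its call was lost without any 1 of 6 libraries. These were NCD week 4 replicate 1, both NCD week 16 libraries, HFD week 2 replicates 2 and 3, and HFD week 4 replicate 2 (log2 change 0.42 to 0.46, adjusted p up to 0.0819). With week 16 left out, a comparison added after seeing the data, Hif1a (0.42 ± 0.09, adjusted p = 0.0193) and Aldoa (0.26 ± 0.06, adjusted p = 0.0341) were called, against 0.861% of all genes. Leaving out single libraries ended the call on Hif1a in 3 of 17 cases and on Aldoa in 11.

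**Figure D4:**
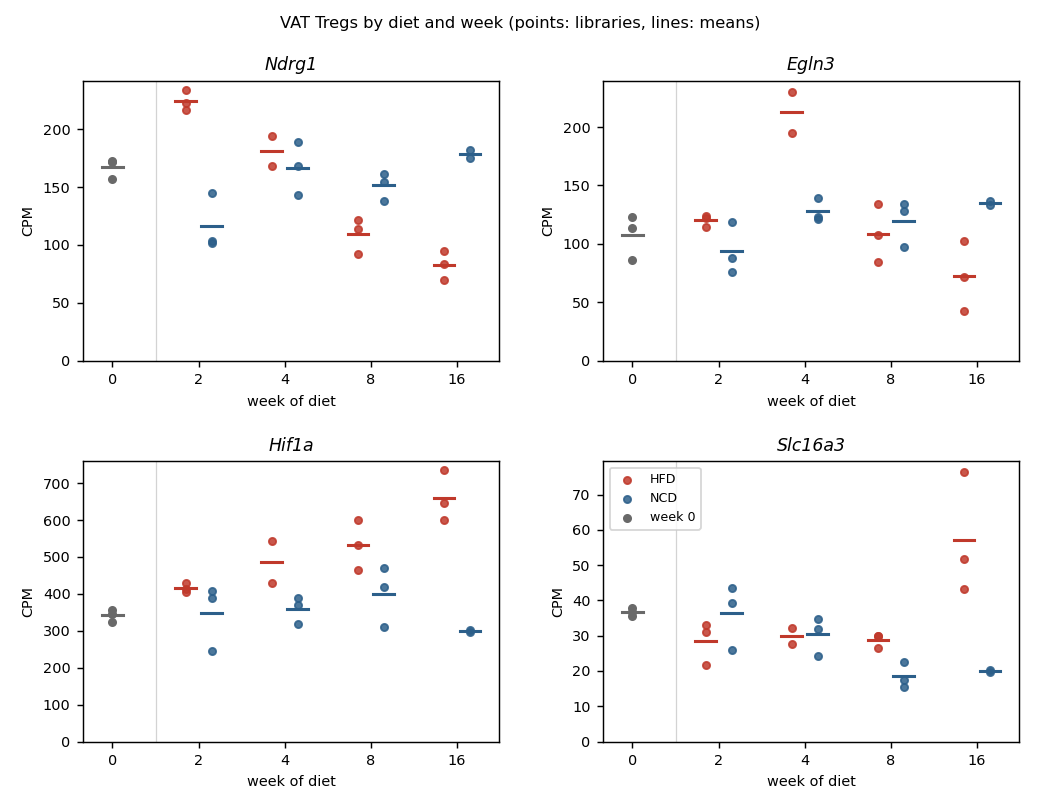
CPM of Ndrg1, Egln3, Hif1a and Slc16a3 in each VAT library by week, HFD left of NCD at each week, with group means. Ndrg1 is above NCD at week 2 and below it at week 16, while Hif1a and Slc16a3 are farthest above NCD at week 16.

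In VAT under NCD, for week 16 against week 0, edgeR called 0 members (5 at an unadjusted p under 0.05), and DESeq2 and limma 0. Of all genes, 0.713% were called. With only the groups compared in the fit, 3 members were called. Under HFD, week 16 against week 0, 3 members were called, against 5.13% of all genes. Ndrg1 fell (−1.08 ± 0.14), with week 0 libraries at 172.3, 171.7 and 156.8 CPM. Hif1a rose (0.88 ± 0.15), with week 0 libraries at 346.2, 356.6 and 324.0 CPM. Aldoc fell (−1.26 ± 0.27), with week 0 libraries at 29.4, 28.7 and 44.6 CPM; without the last of these its adjusted p was 0.055. Leaving out HFD replicate 1 raised the count to 8 members. The week 16 HFD libraries are those of the diet comparison above, so these calls share them.

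In spleen Tregs no week gave a member call by edgeR. At weeks 2, 4, 8 and 16, 6, 2, 3 and 4 members had an unadjusted p under 0.05, and 0.0272%, 1.24%, 0.00% and 0.00% of all 14686 genes were called. DESeq2 called 1 member at week 2 and none at the other weeks, and limma none at any week. With no filter on low counts, edgeR called 1 at week 16. Averaged over weeks, Tpi1 was the only member called (0.44 ± 0.11, adjusted p = 0.039; 0.933% of all genes), and its group mean was above NCD at all 4 weeks. Its HFD libraries ranged from 74.4 to 155 CPM and its NCD libraries from 51.8 to 104 CPM, and its call was lost without any 1 of 13 of the 23 libraries, 7 NCD and 6 HFD (adjusted p up to 0.0936). For NCD week 16 against week 0, edgeR called 0 members (5 at an unadjusted p under 0.05; 0.654% of all genes), DESeq2 2 and limma 0.

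For spleen HFD week 16 against week 0, 2 members were higher, against 1.44% of all genes. Slc16a3 was at 32.0, 26.9 and 21.5 CPM at week 16 against 6.81, 8.24 and 8.27 CPM at week 0 (1.76 ± 0.40). Tpi1 was at 155.1, 109.4 and 107.1 CPM against 69.3, 64.3 and 79.2 CPM (0.79 ± 0.20). The week 16 values lay above all week 0 values for both genes, which were called on these same values. Neither call survived the loss of any week 0 library or of week 16 replicate 1 or 2 (adjusted p up to 0.142 for Slc16a3 and 0.35 for Tpi1). Hif1a, called in VAT, was at 588.2, 466.3 and 381.1 CPM in HFD and 404.3, 282.8 and 488.6 CPM in NCD spleen libraries of week 16, overlapping ranges.

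Most of these genes were lower in cultured VAT Tregs with IFNα than without it. In 2 IFNα libraries against 3 without it, 26 of 33 members were lower, none was higher and 7 did not pass, against 11.0% of all 12604 genes lower and 10.6% higher (21.7% in all). Of the 33 estimates 32 were negative, with a median log2 change of −0.68 where the median of all genes was 0.01. The counts were 26 lower and none higher with DESeq2, limma and library totals as well.

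All 4 transporter genes fell. Slc16a3 was at 88.4 and 85.8 CPM with IFNα against 255.8, 271.0 and 293.7 CPM without (−1.61 ± 0.09, adjusted p = 4.80e-11). Slc2a3 was at 48.8 and 42.8 CPM against 129.5, 132.4 and 132.7 CPM (−1.49 ± 0.11). Libraries of 1 condition lay close together and far from those of the other. Slc2a1 changed by −0.52 ± 0.12, and its share of the glucose transporter pair was 73.3% with IFNα and 58.4% without. Slc16a1 changed by −0.68 ± 0.15, a call lost without IFNα replicate 2 (−0.46, adjusted p = 0.0729).

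Of 16 enzyme genes 14 fell, from the top of the pathway to the bottom. Tpi1 was at 833.8 and 904.3 CPM with IFNα against 1857.1, 1867.9 and 1940.5 CPM without (−1.08 ± 0.07, adjusted p = 5.28e-10). Aldoc changed by −1.63 ± 0.15, Pgk1 by −0.998 ± 0.082, Pkm by −0.82 ± 0.07, Aldoa by −0.68 ± 0.07, Gapdh by −0.62 ± 0.07, Ldha by −0.59 ± 0.07 and Hk2 by −0.58 ± 0.13. The 2 enzyme genes not called were Hk1 (−0.23 ± 0.10) and Ldhb, the only member with a positive estimate (0.29 ± 0.15). Of the flux regulators Pdk1 fell (−1.11 ± 0.10), while Pfkfb3 (−0.26 ± 0.18) and Pfkfb4 (−0.82 ± 0.47) did not pass.

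Of 10 tested hypoxia response genes 7 fell. Bnip3 was at 39.4 and 47.1 CPM with IFNα against 138.4, 135.1 and 155.2 CPM without (−1.67 ± 0.12, adjusted p = 6.58e-10), the lowest estimate among the members. Ndrg1 was at 45.9 and 35.5 CPM against 104.1, 116.4 and 104.3 CPM (−1.38 ± 0.12). Ankrd37 changed by −1.42 ± 0.18 and Egln3 by −0.83 ± 0.13. Egln1, the main oxygen-sensing hydroxylase, changed by −0.69 ± 0.20, a call lost without IFNα replicate 2 or without replicate 2 or 3 of the untreated cultures (adjusted p up to 0.261). Hif1a RNA did not pass: it was at 909.5 and 679.2 CPM with IFNα against 976.2, 795.4 and 854.5 CPM without, a log2 difference of −0.10 ± 0.11. Mxi1 and Kdm3a did not pass either.

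Outside the 34, 14 of 25 further HIF targets were lower with IFNα and 3 higher, with Fam162a at −1.28 ± 0.09, Ero1l at −1.005 ± 0.10 and Higd1a at −0.78 ± 0.10. Of 12 other glycolysis genes 3 were higher and 1 lower: Slc2a6 changed by 0.96 ± 0.10, Eno2 by 1.26 ± 0.23 and Slc16a6 by 0.50 ± 0.14. Of 8 pentose phosphate genes 1 was lower (G6pdx, −0.40 ± 0.09), as were 1 of 11 of pyruvate entry (Mpc1, −0.57 ± 0.17) and 1 of 8 of oxygen sensing (Egln2, −0.38 ± 0.12). Of 11 nutrient regulators 4 were higher and none lower: Myc changed by 0.48 ± 0.08, Irs2 by 1.10 ± 0.23 and Tbc1d4 by 0.85 ± 0.21. Foxp3 averaged 547 CPM with IFNα and 1217 CPM without (−1.11 ± 0.07), and Pparg did not pass (0.62 ± 0.32). The immediate early list summed to 1426 to 1500 CPM with IFNα and 1337 to 1597 CPM without, with 3 genes higher and 2 lower of 16 tested: Klf6 changed by 0.54 ± 0.09, Atf3 by 2.27 ± 0.39 and Egr1 by −1.45 ± 0.33. The B cell list summed to 4092 to 4127 CPM with IFNα and 3526 to 4454 CPM without, again mostly Ighm. The part of other cells was not tested.

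**Figure D5:**
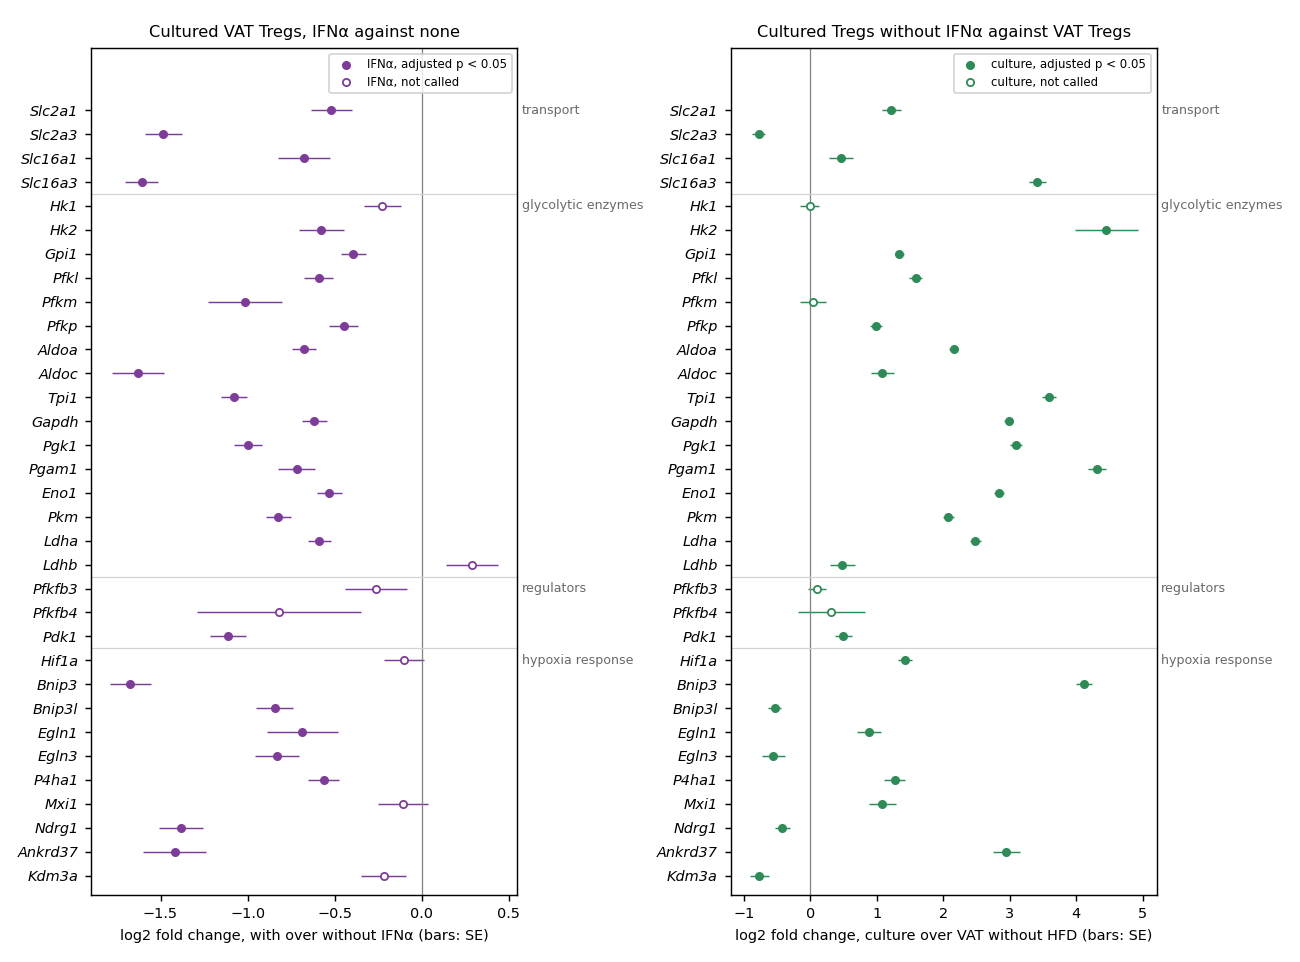
Log2 change of each tested member with IFNα over without it in culture (left) and in cultures without IFNα over VAT Tregs without HFD (right); points are edgeR estimates and bars are standard errors. All but Ldhb lie below 0 on the left, and Hk2, Pgam1 and Bnip3 lie farthest above 0 on the right.

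Cultured VAT Tregs without IFNα had higher levels of most members than VAT Tregs taken from mice without HFD (3 against 14 libraries). Mouse line, T cell receptor, age, IL-33 injection, sorting gate and culture all differ between these groups and cannot be told apart. Of 33 members 24 were higher, 5 lower and 4 not called, against 30.5% of all 14881 genes higher and 29.5% lower (59.9% in all). The median log2 change was 1.22 for the members and −0.03 for all genes. Under library totals alone the split was 22 higher and 5 lower, a scaling to which the shares of all genes above do not belong.

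No enzyme gene was lower, and 14 of 16 were higher. Gapdh was at 1204 to 1257 CPM in culture against 137 to 201 CPM in VAT (2.99 ± 0.07, adjusted p = 2.80e-25). Pgam1, phosphoglycerate mutase, was at 103 to 117 CPM against 4.14 to 8.12 CPM (4.31 ± 0.14), and Hk2 at 54.0 to 61.0 CPM against 0 to 5.19 CPM (4.45 ± 0.47). Eno1 changed by 2.84 ± 0.08, Tpi1 by 3.59 ± 0.11, Pgk1 by 3.09 ± 0.09, Ldha by 2.48 ± 0.08, Aldoa by 2.16 ± 0.06 and Pkm by 2.08 ± 0.09. Hk1 (−0.01 ± 0.15) and Pfkm (0.04 ± 0.20) did not pass. Ldhb was called higher (0.48 ± 0.19), but the call was lost without any 1 of the 3 culture libraries (adjusted p up to 0.118).

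The transporter genes split. Slc16a3 was at 256 to 294 CPM in culture against 15.5 to 43.4 CPM in VAT (3.42 ± 0.12), and Slc2a1 changed by 1.22 ± 0.14. Slc2a3 was lower in culture, at 129 to 133 CPM against 202 to 305 CPM in VAT (−0.78 ± 0.10). Slc16a1 changed by 0.46 ± 0.18, a call lost without culture replicate 2 or 3 (adjusted p up to 0.139). Among the flux regulators Pdk1 was higher (0.50 ± 0.13), and Pfkfb3 and Pfkfb4 did not pass.

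The hypoxia response genes also split, 6 higher and 4 lower of 10. Bnip3 was at 135 to 155 CPM in culture against 6.87 to 11.4 CPM in VAT (4.12 ± 0.13, adjusted p = 2.92e-22), Ankrd37 changed by 2.95 ± 0.21, Hif1a by 1.42 ± 0.11 and P4ha1 by 1.27 ± 0.16. Egln3 (−0.56 ± 0.17) and Ndrg1 (−0.42 ± 0.11), the members that most marked VAT over spleen, were lower in culture than in VAT, and so were Bnip3l (−0.54 ± 0.10) and Kdm3a (−0.77 ± 0.14). Without culture replicate 3 Egln3 was no longer called (adjusted p = 0.051). Bnip3 and its relative Bnip3l, both receptors for the removal of mitochondria, thus changed in opposite directions in this comparison.

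Of 27 further HIF targets 14 were higher and 6 lower in culture, with Fam162a at 3.86 ± 0.11, Mif at 3.88 ± 0.12 and Higd1a at 3.11 ± 0.13. Of 8 pentose phosphate genes 5 were higher and none lower, among them G6pdx (1.59 ± 0.11), Pgd (1.53 ± 0.11) and Tkt (0.57 ± 0.09). Of 14 other glycolysis genes 5 were higher and 5 lower, with Slc2a6 at 4.65 ± 0.26, Pgm1 at 1.60 ± 0.12 and Slc16a6 at −1.18 ± 0.12. Of 11 genes of pyruvate entry 4 were higher and 3 lower, with Pdp1 at −1.37 ± 0.19, Pdha1 at −0.52 ± 0.08 and Mpc1 at 1.23 ± 0.20. Of 9 oxygen-sensing genes 3 were higher and 3 lower, with Arnt2 at −2.02 ± 0.26, Vhl at 1.02 ± 0.14 and Egln2 at 1.13 ± 0.19. Of 11 nutrient regulators Myc was the 1 that was higher (2.06 ± 0.15) and 7 were lower, among them Irs2 (−1.62 ± 0.21) and Prkaa1 (−1.45 ± 0.19). Pparg averaged 4.74 CPM in culture and 96.8 CPM in VAT (−4.27 ± 0.33). The immediate early list summed to 1337 to 1597 CPM in culture against 18670 to 34810 CPM in VAT, with 18 of 20 genes lower, and its part in the members' changes was not tested. The smallest p among them belonged to Btg2 (−3.85 ± 0.15), Dusp1 (−6.33 ± 0.23) and Junb (−3.67 ± 0.16).

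The HFD effects of different weeks were also set against each other in VAT. Between weeks 8 and 2 the effect on Ndrg1 differed (1.02% of all genes called), between weeks 16 and 2 that on Ndrg1, Egln3, Slc16a3 and Ldhb (7.29%), and between weeks 16 and 4 that on Ndrg1, Egln3, Slc16a3 and Slc2a3 (6.21%). Between VAT and spleen at week 16 the effects on Ndrg1 and Slc2a3 differed (4.46%). These contrasts were chosen after the data were seen, and their values stand in the closing section.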

How the data were processed

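The files held deposited read counts per gene symbol for 56 libraries, which the authors made with STAR 2.7.3a and featureCounts on mm10, per the submitters' processing notes. For the annotation release, the strand setting and reads with several matches, the sources used here give nothing. Libraries were Smart-seq with poly(A) selection, 18 PCR cycles and Nextera XT, per the labels' protocols. Counts were fitted with edgeR 4.0.16 in R 4.3.3 (TMM scaling, filterByExpr by group, robust quasi-likelihood test, Benjamini-Hochberg adjustment over all genes, threshold 0.05). Separate fits covered both tissues, VAT, spleen, the cultures, and cultures with VAT, in 19 comparisons; a ± after a log2 change is its standard error and a ± after a CPM is an SD. CPM values were deposited counts scaled to each library's total. All shares of all genes called belong to these edgeR fits with TMM scaling, and none is given beside the counts of the alternatives. The members and the gene lists were chosen with earlier results of these data known.

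Named were every called member, or the 12 with the smallest p where more were called, a fixed set of 15 members in any comparison, and up to 3 called genes per further list. Of the 55011 symbols, 52936 (96.2%) matched GENCODE M21, which gave coordinates (GRCm38) and exon lengths. On simulated counts modelled on VAT HFD against NCD week 16, 33 of 100 genes changed 2-fold and 66 of 100 changed 4-fold were called, and for the cultures 71 and 93 of 100. Alternatives were RLE scaling, no filter, DESeq2 1.42.0, limma 3.58.1 (voom with quality weights), only the groups compared, a replicate block and leaving out each library. The immediate early covariate, library totals alone, the mean without week 16 and the differences between HFD effects were added after seeing the data.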

Additional observations from a re-analysis of the deposited data

Results flagged for a closer look

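The effect of HFD on single members differed between weeks in VAT, or between VAT and spleen at week 16, by edgeR tests of the difference itself (adjusted p under 0.05), chosen after seeing the data. In all, 16 differences between weeks or tissues and the mean difference between tissues were tested. The effect on Ndrg1 at week 8 minus that at week 2 was −1.54 ± 0.20 (adjusted p = 0.000245), and at week 16 minus week 2 it was −2.27 ± 0.21 (adjusted p = 1.10e-07). For week 16 minus week 2, Egln3 differed by −1.47 ± 0.34, Slc16a3 by 1.65 ± 0.34 and Ldhb by 1.41 ± 0.41. The difference for Ldhb was lost without any 1 of 6 libraries (adjusted p up to 0.141).

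For week 16 minus week 4, Ndrg1 differed by −1.42 ± 0.22, Egln3 by −1.81 ± 0.36, Slc2a3 by −0.80 ± 0.20 and Slc16a3 by 1.36 ± 0.36. Slc2a3 was at 216.8, 215.4 and 214.4 CPM in HFD libraries against 258.3 and 224.6 CPM in NCD libraries at week 16. At week 4 it was at 310.3 and 319.7 CPM with HFD against 266.8, 218.4 and 202.8 CPM with NCD. Single libraries decided the call on Slc2a3 in 2 and on Slc16a3 in 6 of 10 cases. With the immediate early mean as a covariate none of these VAT differences was called, but that list's sums did not overlap between diets at weeks 2 and 16.

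For VAT minus spleen at week 16, Ndrg1 differed by −1.29 ± 0.31 (adjusted p = 0.00656) and Slc2a3 by −0.67 ± 0.18 (adjusted p = 0.0142). In spleen at week 16, Ndrg1 was at 39.1, 57.1 and 47.1 CPM with HFD against 32.5, 45.8 and 62.8 CPM with NCD. The call on Slc2a3 was lost without replicate 2 of spleen NCD week 16 (−0.56, adjusted p = 0.0738) or replicate 2 of VAT NCD week 16 (−0.57, adjusted p = 0.149).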

How the results depend on the processing

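No called direction reversed except Gpi1 in VAT against spleen without HFD, at a log2 change of −0.0286 under library totals alone. Counts of called members moved by over 1.5 times as follows. With no filter on low counts: HFD effect in VAT minus spleen 3, VAT HFD against NCD 2 at week 2, 1 at week 4, 2 at week 8 and 5 over the mean of weeks, VAT HFD week 16 against week 0 6, spleen HFD against NCD week 16 1, and spleen NCD week 16 against week 0 1. With DESeq2: 1 for VAT week 8, 1 for spleen week 2, and 2 (NCD) and 5 (HFD) for spleen week 16 against week 0. With limma: 6 for VAT HFD week 16 against week 0. With only the groups compared: 1 for VAT week 4, 3 for VAT NCD week 16 against week 0 and 0 for the spleen mean. With library totals alone: 1 for spleen NCD week 16 against week 0. With the immediate early covariate: 0 for VAT weeks 2 and 16, and 1 for VAT HFD week 16 against week 0. The cause was not tested.

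Leaving out 1 library at a time gave 24 to 26 called members for VAT against spleen without HFD, 21 to 23 with HFD, 0 to 1 for the difference of HFD effects, 1 to 1 for VAT week 2, 0 to 0 for VAT weeks 4 and 8, 3 to 6 for week 16, 2 to 4 for the mean of weeks, 0 to 0 for VAT NCD week 16 against week 0 and 2 to 8 for HFD. In spleen it gave 0 to 0 for each week, 0 to 1 for the mean, 0 to 1 for NCD week 16 against week 0 and 0 to 2 for HFD. It gave 25 to 28 for IFNα and 26 to 29 for culture against VAT.

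Replicate numbers did not pair the libraries as a whole: deviations of same-numbered libraries correlated at a median of 0.01 between tissues (24 pairs), 0.01 between diets in VAT (10 pairs) and 0.03 in spleen (11 pairs), with 1 of 2 culture pairs over 0.1. The 3 VAT and spleen pairs of HFD week 16 were an exception, at 0.41, 0.14 and 0.35, and those of the diets in spleen at week 16 were at 0.39, 0.03 and 0.18. With the block, the VAT minus spleen differences in HFD effect at week 16 were −0.79 for Slc2a3 (edgeR adjusted p = 0.00887) and −1.10 for Ndrg1 (adjusted p = 0.0268), and the 5 VAT calls of week 16 remained. With the number as a block, the count was 1 for the difference of HFD effects and 1 for spleen HFD week 16 against week 0, and Egln1 in culture (adjusted p = 0.0665) and Hk2 and Kdm3a with HFD were lost.

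Groups of 2 or 3 libraries limit the diet and culture comparisons, and members under about 5 CPM rest on few counts.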
